A study of Mus musculus with 12 samples.

Results

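The genes described here are 10 members of the BCL2 family of apoptosis regulators, taken by symbol from a table of 48526 genes. All 10 passed the filter on low counts and were among the 15523 genes tested. The members were the guardians Bcl2, Bcl2l1, Mcl1, Bcl2a1b and Bcl2a1d, the effectors Bax and Bak1, and the BH3-only genes Bcl2l11, Bid and Bbc3. They were measured by total RNA sequencing of bone marrow-derived macrophages (BMDMs), which were grown for 6 d in L929-conditioned medium, a source of the macrophage growth factor CSF1. The mice were either homozygous HSS9 knockout (KO) or wild type (WT). The deletion takes out sequence of HSS9, an enhancer that lies upstream of the tumor necrosis factor gene Tnf, and hits no gene of the table. Cells received PBS (UT) or lipopolysaccharide (LPS), a bacterial cell wall component sensed by Toll-like receptor 4, for 6 hr. The groups were WT UT and KO UT without stimulation and WT LPS and KO LPS with it, each with 3 libraries numbered by batch. According to the methods, only males aged 7 to 10 weeks were used. The labels call the WT controls littermates, whereas the methods describe purchased C57BL/6 mice beside KO mice bred as homozygous pairs, so genotype and breeding origin cannot be told apart. The labels do not say whether libraries of a group came from separate animals, and p-values measure the spread between these libraries only.

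Proteins of the BCL2 family decide whether the outer membrane of the mitochondrion stays intact. The effectors BAX and BAK1 form pores that release cytochrome c, the guardians bind and restrain them, and the BH3-only proteins sense stress and neutralise the guardians or activate the effectors directly. In macrophages, MCL1 and BCL2A1 are known as short-lived guardians, and BCL2A1 is a classical target of NF-kappaB.

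Library totals lay between 26154533 and 36423921 counts, and levels are given as CPM after TMM scaling. A difference passed the test at an edgeR quasi-likelihood adjusted p below 0.05 (Benjamini-Hochberg over all 15523 genes), and it was called when the absolute log2 fold change was also above 1, the criteria of the study. Tnf, the readout of the deletion, had 14.8, 15 and 16.2 CPM in WT UT, 9.51, 10.5 and 9.10 in KO UT, 826, 905 and 938 in WT LPS, and 422, 450 and 425 in KO LPS. Its KO libraries were below all WT libraries in both states. The macrophage markers (7 genes), all detected in each group, summed to 28398 to 29435 CPM in WT UT, 32580 to 33679 in KO UT, 24434 to 25939 in WT LPS and 27051 to 28719 in KO LPS. The KO sums were above the WT sums in both states, with 4 of the 7 markers past the test higher and 1 lower in KO UT and 5 higher in KO LPS. Of the 9 neutrophil markers Ly6g, the defining gene, was at 0 in all groups, but the list summed to 20.5 to 22.2 CPM in WT UT, 43.1 to 48.8 in KO UT, 50.5 to 79.6 in WT LPS and 67.3 to 76.8 in KO LPS. These sums hide opposite changes with LPS: of the 7 tested, 2 were called higher and 3 lower in WT, and 2 higher and 5 lower in KO. WT LPS replicates 1 and 3 were the farthest apart of any replicate pair, with a chi-square per degree of freedom of 46.4. It was 17.4 between replicates 1 and 2 and 12.4 between replicates 2 and 3 of that group.

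The first question was how the members respond to LPS. In WT cells 4 of the 10 members were called higher (Bcl2l1, Bcl2a1b, Bcl2a1d and Bak1) and 2 lower (Bcl2 and Bcl2l11). The background was 19.1% of all genes tested called higher, 18.7% called lower and 37.8% in either direction. In KO cells 3 were called higher (Bcl2a1b, Bcl2a1d and Bak1) and 2 lower (Bcl2 and Bcl2l11), beside backgrounds of 17.7%, 19.3% and 37.0%. At any fold, 9 members passed the test in each genotype, where the backgrounds were 73.3% in WT and 72.8% in KO. The median log2 fold change of the members was 0.61 in WT and 0.51 in KO, against 0.05 and -0.06 for all genes.

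**Figure D1:**
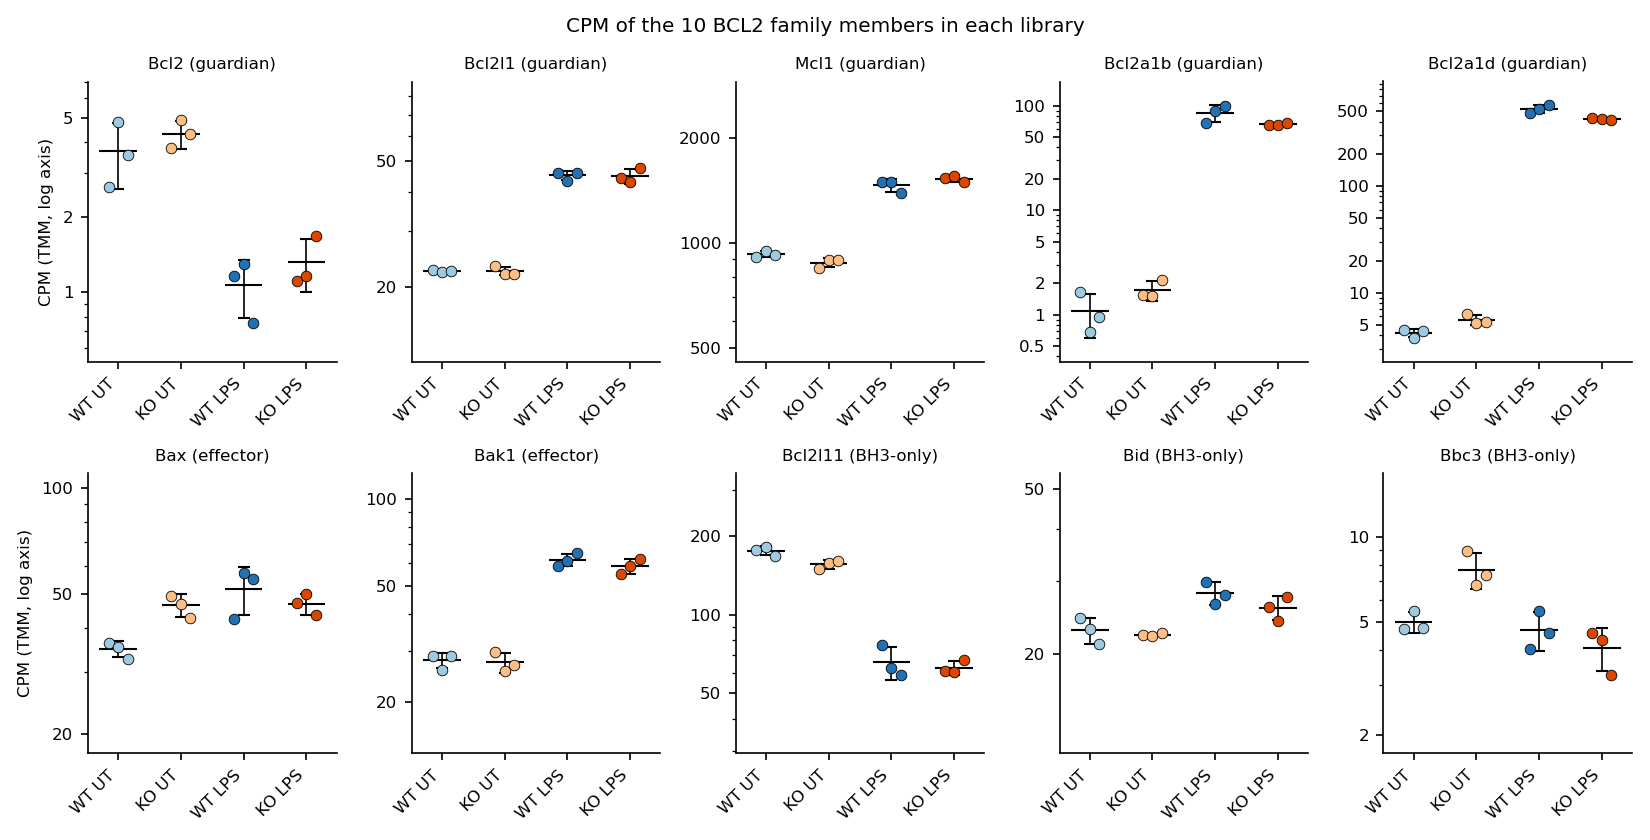
CPM (log axis) of the 10 members in each of the 12 libraries. Points are libraries, horizontal lines are group means and bars are SD (n = 3). Bcl2a1b and Bcl2a1d were at 65.3 CPM or more in every LPS library and at 6.30 CPM or less in every UT library, and Bcl2 and Bcl2l11 were lower in every LPS library than in every UT library.

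Among the guardians, the Bcl2a1 copies had by far the largest increases. Bcl2a1d lay at chr9:88723285-88731914 (GRCm38, minus strand) and was counted at 4.44, 3.79 and 4.38 CPM in WT UT and at 478, 527 and 567 CPM in WT LPS. In KO cells it was at 6.30, 5.23 and 5.29 CPM untreated and at 433, 427 and 411 CPM after LPS. Each LPS library was far above each UT library. The log2 fold change was 6.96 ± 0.0919 (SE; 124-fold) in WT, with an edgeR adjusted p of 7.56e-24, and 6.24 ± 0.0895 (75.6-fold) in KO, with an edgeR adjusted p of 2.43e-23. Bcl2a1b (chr9:89199209-89207827, plus strand) was scarcer, with 1.64, 0.684 and 0.957 CPM in WT UT and 1.56, 1.5 and 2.17 CPM in KO UT. After LPS it reached 68.9, 88.6 and 100 CPM in WT and 66.2, 65.3 and 68.4 CPM in KO. It rose by a log2 fold change of 6.30 ± 0.175 in WT and 5.24 ± 0.168 in KO, with edgeR adjusted p of 1.66e-18 and 2.31e-17.

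Bcl2a1 is a family of near-identical copies, and the split of reads between them is uncertain. The annotated transcripts of Bcl2a1b and Bcl2a1d matched at 99.1% of 817 aligned bases, and 56.8% of the 100-base windows of Bcl2a1b and 54.7% of those of Bcl2a1d also occurred in the transcript of another gene, either a further copy or the read-through gene Gm29094. How multi-mapping reads were counted is not stated. Bcl2a1a, a further copy that is no member, had 8 to 38 counts per UT library and 3160 to 4127 per LPS library, and Bcl2a1c had 0 counts in every UT library and 2 to 4 in each LPS library. With the counts of all 4 copies added up, their sum went from 5.32 to 6.55 CPM in WT UT to 678 to 828 CPM in WT LPS, and from 7.28 to 8.14 CPM in KO UT to 630 to 653 CPM in KO LPS. The summed log2 fold change was 7 ± 0.0922 in WT and 6.36 ± 0.0899 in KO (edgeR adjusted p of 7.15e-24 and 1.91e-23).

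The similarity extends upstream of the start sites. The stretches below are 76 bases from the RefSeq promoter windows (GRCm38.p6) of the copies, each read on the strand of its gene, and are shown because Bcl2a1a, Bcl2a1b and Bcl2a1d had the largest increases. Bcl2a1c, which was too scarce to be tested, is set beside them. Capitals mark an AP-1-like pattern (TGANTCA, where N is any base and reads A in these stretches) and an ETS element (GAGGAAGT). Both were searched on either strand. The copies were placed at chr9:89199089-89199164, chr9:88731915-88731990, chr9:88956780-88956855 and chr9:114329885-114329960 in the order given.
Bcl2a1b: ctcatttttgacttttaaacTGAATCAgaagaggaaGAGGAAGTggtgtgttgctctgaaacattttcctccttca
Bcl2a1d: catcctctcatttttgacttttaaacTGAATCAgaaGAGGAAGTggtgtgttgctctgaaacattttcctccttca
Bcl2a1a: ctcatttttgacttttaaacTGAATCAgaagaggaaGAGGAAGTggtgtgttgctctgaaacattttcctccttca
Bcl2a1c: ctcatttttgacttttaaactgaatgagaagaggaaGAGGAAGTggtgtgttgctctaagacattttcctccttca
The AP-1-like letters were present in the windows of Bcl2a1a, Bcl2a1b and Bcl2a1d and not in that of Bcl2a1c, whose stretch also differs at other bases. These letters occurred in 7.81% of all 32851 RefSeq windows of 300 bases, and the ETS letters in 3.20%. Of the 10 members, 2 had the AP-1-like letters (Bcl2a1b and Bcl2a1d) and 3 had the ETS letters (the same copies and Bak1). A kappaB-like pattern (GGGNNNNNCC) was found for 9 of the 10 members, but in 50.8% of all windows. The member without it was Bcl2a1d, and Bcl2a1a also had none. Members have 15 windows among them, and a match is a description of letters only.

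Mcl1, a guardian with a short-lived protein (chr3:95658788-95663176), was abundant in every library. It had 915, 950 and 925 CPM in WT UT and 1497, 1494 and 1392 CPM in WT LPS, and 851, 892 and 894 CPM in KO UT and 1530, 1558 and 1491 CPM in KO LPS. No LPS library overlapped with a UT library. The log2 fold change was 0.65 ± 0.0474 in WT and 0.80 ± 0.0475 in KO (edgeR adjusted p of 4.77e-11 and 1.55e-12), short of the fold that a call required.

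Bcl2l1, which encodes BCL-XL (chr2:152780668-152831728), had 22.6, 22.4 and 22.5 CPM in WT UT and 46.0, 43.4 and 45.7 CPM in WT LPS. KO cells had 23.3, 22.1 and 22.1 CPM untreated and 44.1, 42.9 and 47.6 CPM after LPS. The level rose by about 1 on the log2 scale in both genotypes, with log2 fold changes of 1.003 ± 0.0622 in WT and 0.996 ± 0.0626 in KO (edgeR adjusted p of 3.05e-12 and 3.81e-12). The difference of 1 member between the genotypes in the number called higher is this gene, which sat on the fold threshold on either side.

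Bcl2, the founding guardian (chr1:106538178-106714274), moved the other way. It was scarce, with 113 to 218 counts per UT library and 16 to 46 per LPS library. In WT it fell from 2.64, 4.81 and 3.57 CPM to 1.16, 1.3 and 0.754 CPM, and in KO from 3.79, 4.91 and 4.30 CPM to 1.11, 1.16 and 1.68 CPM. The log2 fold change was -1.77 ± 0.256 in WT and -1.71 ± 0.242 in KO (edgeR adjusted p of 2.46e-06 and 1.85e-06). Lymphocytes also express Bcl2, and the 5 B cell markers summed to 19.2 to 21.8 CPM in WT UT and 38.2 to 40.2 CPM in KO UT, nearly all from Ighm, against 0.932 to 1.60 CPM in WT LPS and 1.68 to 1.88 CPM in KO LPS. Ms4a1 was at 0 in every WT UT library, Pax5 in every KO UT and WT LPS library and Cd79a in every LPS library, and the part of these transcripts in the Bcl2 values was not tested. In bulk RNA, fewer cells of a type and less RNA per cell cannot be told apart.

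Per length of exon, the make-up of the guardian transcripts turned over with LPS. Mcl1 made up 95.7% ± 0.288 (SD, n = 3) of the summed CPM per kb of Bcl2, Bcl2l1, Mcl1 and the Bcl2a1 copies in WT UT and 94.6% ± 0.307 in KO UT. After LPS its share was 32.3% ± 2.97 in WT and 36.7% ± 0.344 in KO. The Bcl2a1 copies held 2.45% ± 0.296 before and 66.9% ± 3.02 after LPS in WT, and 3.40% ± 0.251 before and 62.5% ± 0.325 after LPS in KO. Bcl2l1 went from 1.72% ± 0.0326 to 0.743% ± 0.0545 in WT, since the summed guardian level rose from 284 ± 4.67 to 1326 ± 74.4 CPM per kb. These shares are descriptions and depend on the transcript models and on how reads of the copies were assigned.

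**Figure D2:**
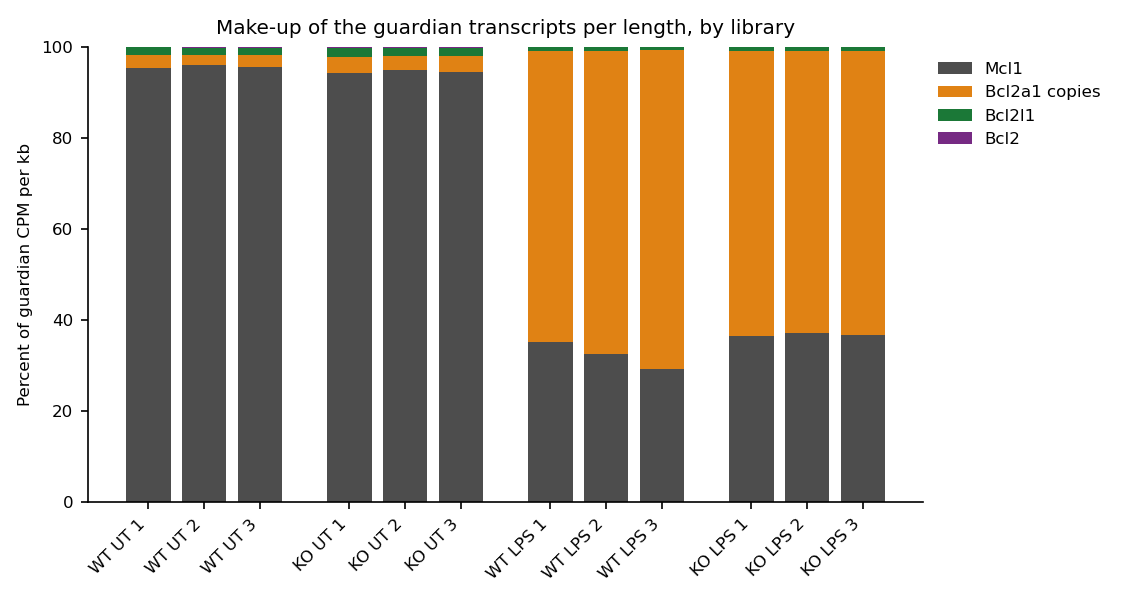
Share of the summed guardian level (percent of CPM per kb of exon) held by Mcl1, the Bcl2a1 copies, Bcl2l1 and Bcl2 in each of the 12 libraries. Mcl1 held 94.3% to 96.0% in UT libraries, and the Bcl2a1 copies held 62.1% to 70.1% in LPS libraries.

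The effectors did not move together. Bak1 (chr17:27019810-27029009) had 28.8, 25.8 and 28.7 CPM in WT UT and 58.6, 61.2 and 64.9 CPM in WT LPS, and 29.8, 25.6 and 26.9 CPM in KO UT and 54.9, 58.8 and 62.2 CPM in KO LPS. It rose in both genotypes, by 1.15 ± 0.0712 in WT and 1.10 ± 0.0717 in KO on the log2 scale (edgeR adjusted p of 2.98e-12 and 7.46e-12). Bak1 shared 9.44% of its 100-base windows with Ggnbp1 on the opposite strand. Bax (chr7:45461697-45466898) had 36.3, 35.3 and 32.7 CPM in WT UT and 42.4, 57.1 and 55.0 CPM in WT LPS. The increase in WT was 0.56 ± 0.0896 (edgeR adjusted p of 8.29e-06), with WT LPS replicate 1 the lowest of its group, and without that library it was 0.69. In KO, Bax had 49.4, 46.9 and 42.6 CPM untreated and 47.2, 49.9 and 43.4 CPM after LPS, so the groups overlapped (log2 fold change 0.02 ± 0.0890, edgeR adjusted p of 0.871). With per-library offsets for gene length and GC content the KO change was 0.54 (edgeR adjusted p of 2.89e-08), so the absence of a Bax response in KO depends on that setting.

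Of the BH3-only genes, Bcl2l11 was the most abundant and the only member of this class called in the LPS comparisons, although Bbc3 was also called in KO with upper-quartile scaling (-1.10), on library totals (-1.43) or without KO UT replicate 2 (-1.01) or KO LPS replicate 1 (-1.02). Bcl2l11, which encodes BIM (chr2:128126038-128162547), had 177, 181 and 168 CPM in WT UT and 76.7, 62.5 and 58.6 CPM in WT LPS. In KO it had 149, 158 and 160 CPM untreated and 61.0, 60.2 and 66.9 CPM after LPS. Each LPS library was below each UT library, and the log2 fold change was -1.41 ± 0.0775 in WT and -1.31 ± 0.0774 in KO (edgeR adjusted p of 3.56e-13 and 1.28e-12). BIM is a known FOXO target, and Foxo3 itself fell by 1.82 ± 0.0576 in WT and by 1.65 ± 0.0569 in KO on the log2 scale (edgeR adjusted p of 1.78e-17 and 7.99e-17). A FOXO element (GTAAACA, capitals) was found in 1 of the 2 RefSeq windows of Bcl2l11, shown for this reason at chr2:128125788-128125840 on the plus strand of GRCm38.p6. These letters occurred in 3.65% of all windows and, of the members, in 1 of the 2 windows of Bcl2l11 and 1 of the 3 of Bbc3. A match is a description of letters only, and a part of FOXO factors in the Bcl2l11 change was not tested.
Bcl2l11: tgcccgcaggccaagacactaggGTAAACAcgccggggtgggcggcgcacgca

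Bid, which caspase 8 cleaves to link death receptors to mitochondria (chr6:120891930-120916853), changed little. It had 24.4, 22.9 and 21.1 CPM in WT UT and 29.8, 26.4 and 27.7 CPM in WT LPS, and 22.2, 22.1 and 22.4 CPM in KO UT and 26, 24 and 27.4 CPM in KO LPS. The log2 fold change of 0.30 ± 0.0748 in WT and 0.22 ± 0.0755 in KO passed the test (edgeR adjusted p of 0.00131 and 0.0144) but not with upper-quartile scaling (adjusted p of 0.166 and 0.712). In KO it also missed the threshold without KO LPS replicate 3 (edgeR adjusted p of 0.0820). Bid shared 15.1% of its windows with the overlapping gene Bcl2l13.

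Bbc3, the p53 target that encodes PUMA (chr7:16308393-16318205), had 4.73, 5.49 and 4.78 CPM in WT UT and 4.02, 5.48 and 4.57 CPM in WT LPS. These groups overlapped, and the log2 fold change was -0.10 ± 0.158 (adjusted p of 0.585 by edgeR). In KO it fell from 8.93, 6.76 and 7.33 CPM to 4.60, 4.32 and 3.26 CPM, a log2 fold change of -0.92 ± 0.155 (adjusted p of 1.81e-05 by edgeR). With the offsets for length and GC content the change in KO was -0.24 (edgeR adjusted p of 0.159) and no longer passed the test.

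The smaller changes with LPS depend on the scaling. TMM factors were 1.29 in all WT UT libraries, 1.15 to 1.18 in KO UT and 0.811 to 0.822 after LPS. On library totals without these factors, the median log2 fold change of all genes was -0.62 in place of 0.05 in WT and -0.56 in place of -0.06 in KO. On that scale Mcl1 was at -0.01 in WT, Bax at -0.10 in WT and -0.49 in KO, and Bid at -0.37 in WT and -0.29 in KO, each with the sign turned but above the shifted median. The directions of the Bcl2a1 copies, Bcl2l1, Bak1, Bcl2 and Bcl2l11 were the same on both scales. With upper-quartile scaling Bak1 was at 0.97 in WT and 0.91 in KO and Bcl2l1 at 0.82 in WT, short of the fold for a call, and Bbc3 in KO was called lower at -1.10, so 2 members were called higher in each genotype. On library totals Bak1 was at 0.48 and 0.59 and Bcl2l1 at 0.34 in WT, also short of it.

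**Figure D3:**
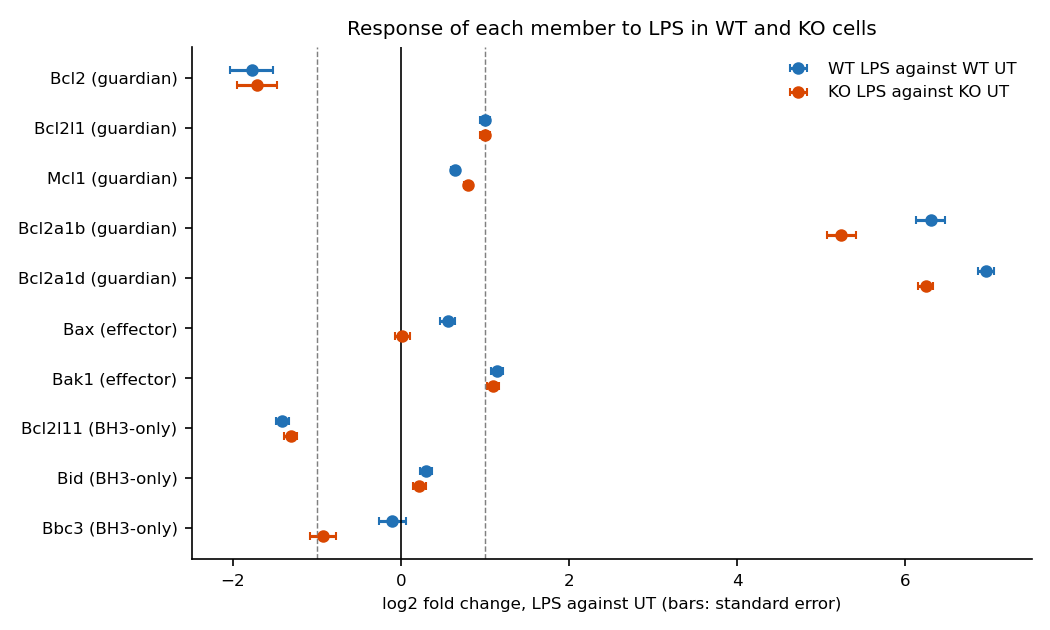
Log2 fold change of each member from UT to LPS in WT (blue) and KO (orange) cells. Bars are standard errors, and dashed lines mark the fold that a call required. The Bcl2a1 copies stood between 5.24 and 6.96, Bcl2 and Bcl2l11 between -1.77 and -1.31, and the other members between -0.92 and 1.15.

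Levels per length can be compared between genes. In WT UT the order was Mcl1 (272 ± 5.26 CPM per kb), Bax (22.1 ± 1.15), Bcl2l11 (21.9 ± 0.828), Bak1 (11.5 ± 0.703), Bid (6.43 ± 0.466), Bcl2l1 (4.90 ± 0.0160), Bcl2a1d (4.87 ± 0.415), Bbc3 (2.35 ± 0.201), Bcl2a1b (1.34 ± 0.601) and Bcl2 (0.401 ± 0.119), as mean ± SD of 3 libraries. Bax and Bcl2l11 did not differ beyond their spread, nor did Bcl2l1 and Bcl2a1d. In WT LPS the order became Bcl2a1d (607 ± 51.3), Mcl1 (427 ± 17.5), Bcl2a1b (105 ± 19.4), Bax (32.7 ± 5.01), Bak1 (25.6 ± 1.3), Bcl2l1 (9.82 ± 0.311), Bcl2l11 (8.21 ± 1.18), Bid (7.88 ± 0.485), Bbc3 (2.21 ± 0.345) and Bcl2 (0.117 ± 0.0310). There the ranges of Bcl2l1, Bcl2l11 and Bid overlapped from each to the next, and the lowest Bax and highest Bak1 libraries were both at 26.9 CPM per kb. The summed level of the BH3-only members was 30.6 ± 1.3 CPM per kb in WT UT and 18.3 ± 1.36 in WT LPS, and 29.2 ± 0.426 and 17.0 ± 0.659 in KO. Bcl2l11 held 71.4% ± 0.565 of that sum in WT UT and 44.7% ± 3.03 in WT LPS. Summed guardian transcripts exceeded those of the BH3-only members 9.29-fold ± 0.357 in WT UT and 72.9-fold ± 9.17 in WT LPS. The guardian sum held Bcl2a1a and Bcl2a1c beside the members, but not the further guardians Bcl2l2 and Bcl2l10. In KO these ratios were 9.29-fold ± 0.179 and 71.7-fold ± 3.86. With Bad, Bik, Bmf, Hrk and Pmaip1 added to the BH3-only sum and the guardian sum unchanged, the ratios were 5.34 ± 0.211 and 39 ± 2.03 in WT and 5.39 ± 0.142 and 39.1 ± 0.277 in KO.

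The next question was whether the deletion changed the members without stimulation. No member was called in KO UT against WT UT by edgeR (0 of 10, with 5 at an unadjusted p below 0.05), nor by DESeq2 (0), where edgeR called 1.82% of all genes. At any fold, 3 of the 10 members passed the test, all higher in KO (Bcl2a1d, Bax and Bbc3), beside 14.1% of all genes higher and 23.8% in either direction. Bax, with 46.3 ± 3.48 CPM in KO UT and 34.8 ± 1.81 CPM in WT UT, had a log2 fold change of 0.41 ± 0.0882 (adjusted p of 0.00135 by edgeR) and was higher in KO in 3 of 3 batches. Bcl2a1d, with 5.61 ± 0.605 against 4.21 ± 0.358 CPM, was higher by 0.41 ± 0.0993 (edgeR adjusted p of 0.00377), also in 3 of 3 batches. Bbc3, with 7.67 ± 1.13 against 5 ± 0.428 CPM, was higher by 0.62 ± 0.144 (edgeR adjusted p of 0.00304), in 3 of 3 batches. For each of these genes the KO UT libraries were all above the WT UT libraries, so any pairing would give 3 of 3 and the batch counts add no support.

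Gene length moved with this comparison. Over 12360 genes the log2 fold change of KO UT against WT UT had a Spearman rho of -0.405 with summed exon length, as a description across genes within these libraries. The 3 members that were higher in KO UT are among the 4 shortest of the 10, at 863 bases for Bcl2a1d, 1576 for Bax and 2124 for Bbc3. With per-library offsets for length and GC content, 0 of 10 members passed the edgeR test, with 3 at an unadjusted p below 0.05, beside 22.5% of all genes past it in the same fit. The log2 fold change of Bax was then 0.09 (adjusted p of 0.318), that of Bcl2a1d 0.11 (adjusted p of 0.424) and that of Bbc3 0.34 (adjusted p of 0.0854). Tnf remained lower with the same offsets, at -0.90 (edgeR adjusted p of 1.66e-10). Of the neutrophil markers, 5 of the 7 tested were called higher in KO UT, where every library had a higher sum of the list than any WT UT library. The part of neutrophil RNA, which can carry Bcl2a1 transcripts, was not tested. Protein-coding genes held 86.3% to 87.6% of the counts in KO UT and 90.1% to 90.6% in WT UT, and with these genes alone the same 3 members passed, Bax at 0.42, Bcl2a1d at 0.42 and Bbc3 at 0.62.

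**Figure D4:**
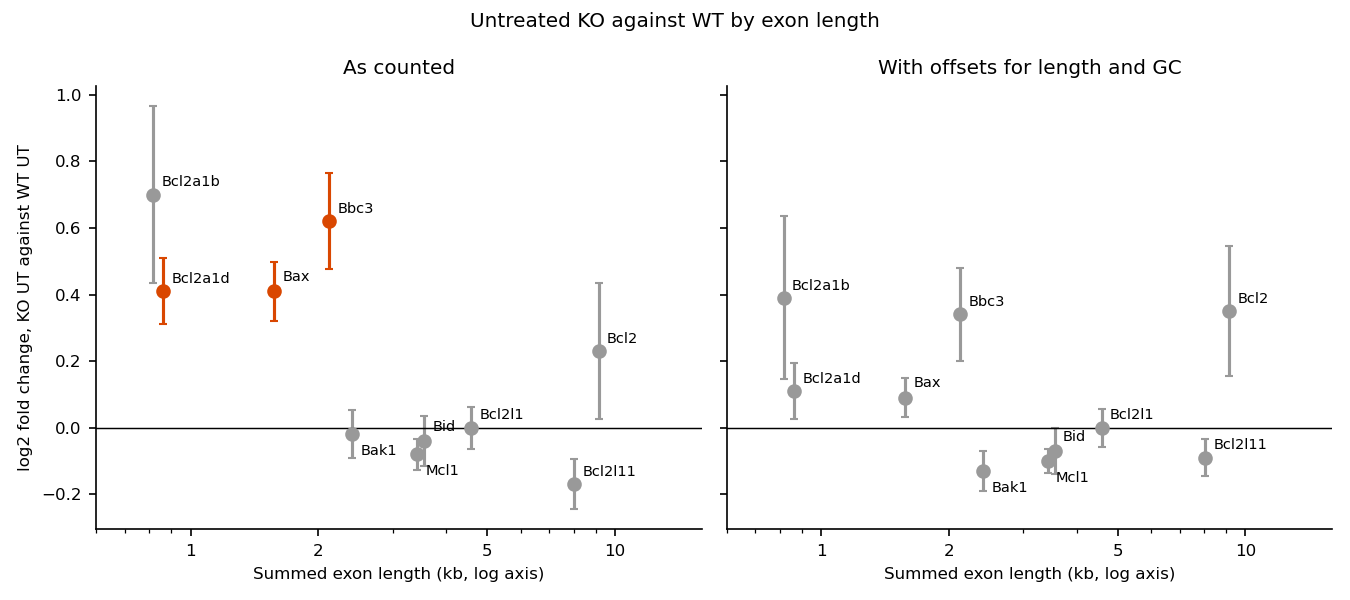
Log2 fold change of KO UT against WT UT (bars: standard error) of the 10 members against summed exon length (kb, log axis), from the counts as deposited (left) and with offsets for length and GC content (right). Orange marks an adjusted p below 0.05. Bax, Bcl2a1d and Bbc3 pass the test on the left and no member does on the right.

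The remaining members gave no difference that passed the test in UT cells. Mcl1 was at -0.08 ± 0.0472 (edgeR adjusted p of 0.240) and Bcl2l11 at -0.17 ± 0.0743 (edgeR adjusted p of 0.0981), with the KO UT libraries of both below the WT UT libraries. Both passed with DESeq2 (adjusted p of 0.0035 and 0.00912) and with RLE scaling. Bcl2l11 also passed with upper-quartile scaling (-0.20, edgeR adjusted p of 0.0378) and with only the groups compared (-0.18, edgeR adjusted p of 0.00387). Bcl2a1b was at 0.70 ± 0.266 (edgeR adjusted p of 0.0612), and without WT UT replicate 1 it was at 1.10 and called. With no filter on low counts Bcl2a1b passed the test (edgeR adjusted p of 3.32e-04). The summed Bcl2a1 copies, Bcl2a1d included, were higher in KO UT at 0.41 ± 0.0924 (edgeR adjusted p of 0.00218). Bcl2l1 was at 0.00 ± 0.0629, and Bcl2, Bak1 and Bid lay between -0.04 and 0.23. Groups did not overlap for 5 of the 10 members, beside 40.8% of all genes.

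After LPS, no member was called between KO and WT by edgeR (0 of 10, with 2 at an unadjusted p below 0.05) or by DESeq2 (0), beside 1.25% of all genes by edgeR, and 2 passed at any fold, both lower in KO and both Bcl2a1 copies, beside 6.54% of all genes lower and 14.3% in either direction. Bcl2a1d, at 423 ± 11.4 CPM in KO LPS and 524 ± 44.2 CPM in WT LPS, was at -0.31 ± 0.0666 on the log2 scale (edgeR adjusted p of 0.00385). Its KO LPS libraries were all below its WT LPS libraries, so it was lower in any pairing, at log2 ratios of -0.14, -0.30 and -0.46 by batch. It passed in every fit that left out 1 library. It also passed with the offsets for length and GC content, at -0.22 (edgeR adjusted p of 0.00407). Bcl2a1b, at 66.7 ± 1.60 against 85.9 ± 15.8 CPM, was at -0.36 ± 0.117 (edgeR adjusted p of 0.0415). It was near WT in batch 1, where the log2 ratio was -0.06, and lower in batches 2 and 3, at -0.44 and -0.55. With the replicate block its edgeR adjusted p was 0.0651, so the count of members past the test was 1 in place of 2. It also missed the threshold in 5 of the 6 fits that left out 1 of the libraries compared, with an edgeR adjusted p of up to 0.182 without WT LPS replicate 3, and passed only without WT LPS replicate 1. These copies share sequence, and how multi-mapping reads were counted is not stated, so their results cannot be taken as independent. The sum of the copies was lower in KO LPS at -0.23 ± 0.0678 (edgeR adjusted p of 0.0274), and Bcl2a1a was at 0.08 ± 0.0838 (edgeR adjusted p of 0.558). With the offsets Bcl2a1a was at 0.18 and passed (edgeR adjusted p of 0.0498), higher in KO where the member copies were lower. Bcl2a1a held 23.6% to 24.0% of the counts of the copies in KO LPS and 18.7% to 19.5% in WT LPS.

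The other 8 members lay between -0.21 and 0.29 after LPS, and their KO and WT libraries overlapped. Groups were thus apart for 2 of the 10 members, beside 29.1% of all genes. Bcl2l1 was at -0.01 ± 0.0614 and Mcl1 at 0.06 ± 0.0472 on the log2 scale. Bax was at -0.13 ± 0.0903 (edgeR adjusted p of 0.356), and without WT LPS replicate 1 it was at -0.26 and passed (edgeR adjusted p of 0.0124). Of the 5 stromal markers, 4 were called higher in KO LPS, with sums of 26.3 to 28.4 CPM against 21.6 to 23.9 CPM in WT LPS, and their part in these values was not tested.

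Whether the LPS response itself differed between the genotypes was tested as the interaction, KO response minus WT response. Of the members, Bcl2a1b was called, with a lower value in KO, beside 1.64% of all genes called lower and 2.16% in either direction. With DESeq2 (-0.97), RLE scaling (-0.98) or library totals (-0.91) Bcl2a1b passed the test but fell short of the fold, so 0 members were called. The summed copies passed at -0.64 ± 0.115 (edgeR adjusted p of 5.34e-04). At any fold 4 members passed the edgeR test, all with a lower value in KO, beside 9.50% of all genes lower and 16.8% in either direction. They were Bcl2a1d at -0.72 ± 0.120 (adjusted p of 2.82e-04), Bcl2a1b at -1.06 ± 0.290 (adjusted p of 0.0144), Bbc3 at -0.82 ± 0.222 (adjusted p of 0.0135) and Bax at -0.55 ± 0.126 (adjusted p of 0.00450). Within batches, the interaction was negative in 3 of 3 for Bcl2a1d, where groups apart in both states fix that sign in any pairing, and for Bbc3 and Bax. For Bcl2a1b it was 0.01 in batch 1, -1.57 in batch 2 and -1.73 in batch 3, and it missed the test without WT UT replicate 2 (-0.82, edgeR adjusted p of 0.0671), WT UT replicate 3 (-0.98, adjusted p of 0.0502) or KO UT replicate 3 (-0.86, adjusted p of 0.0800). Without WT LPS replicate 3 (-0.94) it fell short of the fold. Bbc3 missed the threshold without WT LPS replicate 2 (edgeR adjusted p of 0.0597), and 6 members passed without WT LPS replicate 1, where Mcl1 (0.16) and Bcl2l11 (0.22) joined with higher values in KO. Without WT LPS replicate 1, 24.1% of all genes passed, in place of 16.8%. Mcl1 also passed with DESeq2 (0.22, adjusted p of 0.00375), with RLE scaling (0.22, edgeR adjusted p of 0.0206) and on library totals (0.30, edgeR adjusted p of 0.00327). The interaction shares its UT values with the comparison above and had a Spearman rho of 0.354 with exon length over 12360 genes. With the offsets for length and GC content, Bcl2a1d remained at -0.32 (edgeR adjusted p of 0.0286), while Bcl2a1b (-0.65, adjusted p of 0.103), Bbc3 (-0.38, adjusted p of 0.270) and Bax (-0.06, adjusted p of 0.717) did not pass. Bcl2a1a, whose reads cannot be fully told from those of the other copies, was at 0.79 ± 0.287 in the interaction with the offsets (edgeR adjusted p of 0.0676). Of the 7 neutrophil markers tested, 3 were called lower in the interaction (S100a8, Mpo and Camp) and stayed past the test with the offsets, and of the 5 stromal markers 2 were called higher. Protein-coding genes held 86.9% to 90% of the counts in WT LPS and 91.4% to 91.6% in KO LPS, the opposite order to UT, and with these genes alone the same 4 members passed. The part of the marker genes in the interaction was not tested. The other 6 members lay between -0.08 and 0.14.

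The wider pathway was described from lists of 40 genes, of which 35 were tested. In WT 11 of the 35 were called higher and 5 lower with LPS, and in KO also 11 higher and 5 lower, together 45.7% of the genes tested in each genotype, where the shares of all genes were 37.8% in WT and 37.0% in KO. Within the BCL2 family beyond the members (16 genes, 11 tested), Bmf, a BH3-only gene, had the largest decrease. It fell from 44.9, 46 and 45 CPM to 1.45, 0.629 and 1.51 CPM in WT and from 34.2, 36.2 and 37.1 CPM to 1.15, 1.95 and 1.5 CPM in KO, at -5.23 ± 0.148 and -4.54 ± 0.140 on the log2 scale (edgeR adjusted p of 2.39e-18 and 1.09e-17). Pmaip1, which encodes the BH3-only protein NOXA, was at -0.96 ± 0.105 in WT and at -1 ± 0.109 in KO, called in KO alone, with both values at the fold threshold. Bnip3l, a mitophagy receptor, fell by 1.37 ± 0.0611 in WT and by 1.15 ± 0.0602 in KO, whereas its relative Bnip3 rose 8.02-fold in WT and 8.24-fold in KO. Bcl2l2, the guardian BCL-W, and Bad, a BH3-only gene, rose by 0.80 and 0.81 in WT and by 0.63 and 0.33 in KO. Hrk had 0 counts in every library.

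**Figure D5:**
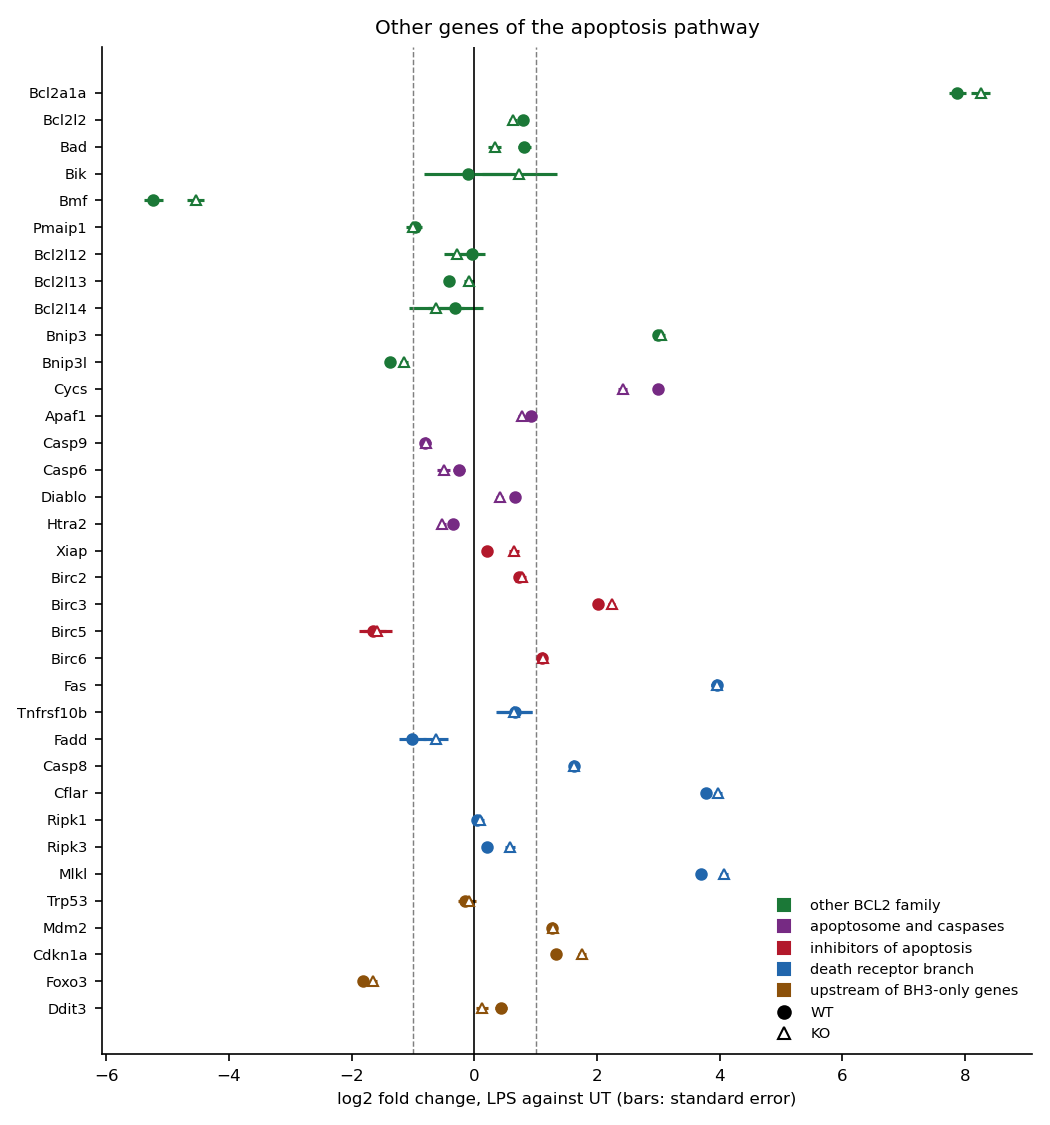
Log2 fold change from UT to LPS of 35 further genes of the apoptosis pathway in WT (filled circles) and KO (open triangles), coloured by list. Bars are standard errors, and dashed lines mark the fold that a call required. Bcl2a1a lies farthest to the right at 7.87 and 8.25, and Bmf farthest to the left at -5.23 and -4.54.

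Downstream of the mitochondrion, Cycs (cytochrome c) rose 8.02-fold in WT and 5.36-fold in KO. It was the 1 of 6 genes of that list called in each genotype. Among the 5 inhibitors of apoptosis, Birc3 (cIAP2) rose 4.06-fold in WT and 4.74-fold in KO, Birc6 was called higher at 1.10 and 1.12 on the log2 scale, and Birc5 (survivin), a gene of dividing cells, was called lower at -1.66 and -1.58. In the death receptor branch (8 genes), 4 were called higher in each genotype: the receptor Fas (15.5-fold in WT and 15.4-fold in KO), the caspase 8 inhibitor Cflar (13.6-fold and 15.6-fold), the necroptosis effector Mlkl (12.9-fold and 16.8-fold) and Casp8 itself (1.62 on the log2 scale in both). The adaptor Fadd was called lower in WT at -1.01 and was at -0.63 in KO. Of 5 regulators upstream of BH3-only genes, Mdm2 and Cdkn1a, both p53 targets, were called higher at 1.27 and 1.33 in WT and 1.28 and 1.75 in KO, and Foxo3 was called lower.

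Between genotypes, 0 of these 35 genes were called by edgeR or DESeq2 in either state, with 18 in UT and 14 after LPS at an unadjusted edgeR p below 0.05. At any fold, 5 were higher and 11 lower in KO UT, together 45.7% of them beside 23.8% of all genes, and 5 were higher and 7 lower in KO LPS, together 34.3% beside 14.3%. With the offsets for length and GC content the counts were 5 higher and 10 lower in UT cells, beside 22.5% of all genes in either direction, and 6 higher and 7 lower after LPS, beside 18.4%. Pmaip1 was lower in KO in both states, at -0.36 ± 0.0975 in UT and -0.40 ± 0.117 after LPS (edgeR adjusted p of 0.00976 and 0.0262). Trp53 and Mdm2 were also lower in KO in both states, Trp53 at -0.40 and -0.32 and Mdm2 at -0.28 and -0.28. Bnip3 was higher in KO in both, at 0.24 and 0.28, and Htra2, a mitochondrial protease, at 0.34 and 0.16. Further genes lower in KO UT were Cdkn1a, Ripk3, Mlkl, Cflar, Birc3, Birc5, Birc6 and Bmf, between -0.54 and -0.17, and Cycs, Diablo and Bad were each higher at 0.37. After LPS, Bcl2l2, Apaf1, Fas and Cycs were also lower in KO, between -0.25 and -0.21, and Xiap, Bcl2l13 and Bnip3l were higher, between 0.20 and 0.28. In the interaction 4 of the 35 were higher in KO (Xiap, Ripk3, Mlkl and Cdkn1a) and 2 lower (Cycs at -0.58 and Bad at -0.48), together 17.1% beside 16.8% of all genes. With DESeq2 11 of the 35 passed, beside 22.0% of all genes. With the offsets 4 were higher and 4 lower, Apaf1 and Diablo joining the lower ones, beside 15.4%.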

How the data were processed

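Stranded, globin-depleted libraries were made from total RNA. Per the submitters' processing notes, the authors aligned with HISAT2 2.1.0 (GRCm38) and counted with featureCounts 2.0.0, and they deposited raw counts per gene. The annotation release, strand setting and treatment of multi-mapping reads are not given in the sources used here. Symbols, coordinates and lengths came from a GENCODE annotation of GRCm38, which matched 48144 of 48526 identifiers; all 10 members matched a RefSeq promoter window (GRCm38.p6).

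Counts were tested in edgeR 4.0.16 (R 4.3.3; quasi-likelihood test) after TMM scaling and filterByExpr (minimum count 10, minimum total 15), with 12 libraries in 1 model of group means. This kept 15523 genes with 99.96% of counts. The same code was tested on simulated data. SE was derived from the fold change and its F statistic. Per-length levels are CPM divided by summed exon length. Offsets were splines of length and GC content (5 degrees of freedom) fitted per library, and they were chosen after seeing the data, as was the fit on library totals. The floor was 3 counts and covers counting error only.

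The members and gene lists were chosen with earlier results of these data known. All members are named, and genes of the pathway lists where called with LPS, past the test between genotypes or a Bcl2a1 copy; marker lists are given by counts. Gene lists also held markers of macrophages, neutrophils, B cells, T cells, mast cells and stromal cells and cell cycle genes. Further listed genes are not reported here. T cell markers summed to at most 8.97 CPM and mast cell markers to at most 0.601 CPM in any library, and 3 of 7 cell cycle genes were lower and 1 higher in KO UT.

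The replicate number equals the batch number of the labels and thereby pairs the libraries. Deviations from group means of the 18 same-number pairs correlated between -0.0631 and 0.0373. No replicate pair was within counting noise (chi-square per degree of freedom of at least 3.80), so each library was kept as a sample. Alternatives were DESeq2 1.42.0, other scalings and filters, a replicate block, only the groups compared, protein-coding genes only, the copies summed, and leaving out each library.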

Additional observations from a re-analysis of the deposited data

Results flagged for a closer look

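The LPS response of 4 members differed between the genotypes by the interaction test of edgeR. The KO response minus the WT response was -1.06 for Bcl2a1b, -0.72 for Bcl2a1d, -0.55 for Bax and -0.82 for Bbc3 on the log2 scale. All 4 stayed negative with offsets for gene length and GC content, but of them Bcl2a1d alone still passed the test. The KO UT libraries enter each of these values. Groups of 3 libraries are too small for a test of single outlying libraries.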

How the results depend on the processing

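Of 1038 log2 fold changes of single members (and Tnf between genotypes) recomputed under alternatives, 945 kept their direction (at 2 decimals) and side of the threshold, 30 lost the threshold, 20 gained it and 43 turned sign. Of the 43, 5 were past the test in at least 1 of the fits compared, all on library totals without scaling factors: Mcl1 (-0.01), Bax (-0.10) and Bid (-0.37) in WT, and Bax (-0.49) and Bid (-0.29) in KO. The other 38 passed in neither fit. With the offsets, without or with the block, these were Bbc3 for LPS in WT (0.14), Bax between LPS genotypes (0.03) and, in the interaction, Bak1 (0.08) and Bcl2 (-0.06, and -0.09 with the block). Further turns were Bax for LPS in KO with upper-quartile scaling (-0.17), Bcl2l1 between LPS genotypes and in the interaction with no filter (0.02 each), Bcl2l1 (0.07) and Bak1 (0.03) in the interaction with DESeq2 or RLE scaling, and Bcl2l1 (0.15), Bak1 (0.11) and Bid (0.08) in the interaction on library totals. Leaving out 1 library turned Bbc3 with LPS in WT (range -0.23 to 0.01), Bax with LPS in KO (-0.04 to 0.07), Bak1 (-0.08 to 0.03) and Bid (-0.09 to 0.01) between UT genotypes, Bcl2l1 (-0.05 to 0.03) and Bcl2l11 (-0.15 to 0.05) between LPS genotypes, and Bcl2 (-0.18 to 0.25), Bcl2l1 (-0.05 to 0.03) and Bak1 (-0.10 to 0.02) in the interaction. Members called without a fold minimum numbered 9 in place of 5 for LPS in KO, 3 in place of 0 between UT genotypes, 2 in place of 0 between LPS genotypes and 4 in place of 1 for the interaction. Members past the test between UT genotypes numbered 5 with DESeq2, RLE scaling or library totals, where 29.6%, 28.8% and 37.1% of all genes passed in place of 23.8%, and 0 with offsets for length and GC content, without or with a replicate block. Between LPS genotypes 1 in place of 2 passed with DESeq2, the replicate block, the offsets (without or with the block) or the copies summed. For the interaction 0 were called with DESeq2, library totals, RLE scaling, the copies summed or the offsets (without or with the block), and 1 passed with the offsets. The cause was not tested. The replicate block without offsets changed no other call.

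Leaving out 1 library gave 5 to 6 members called for LPS in WT and 5 to 7 in KO, 0 to 1 between UT genotypes, 0 between LPS genotypes and 0 to 1 for the interaction. Of all genes, 36.3% to 37.3%, 35.8% to 36.6%, 1.47% to 1.89%, 0.882% to 1.54% and 1.24% to 3.27% were called in that order. Past the test at any fold were 9, 8 to 9, 3 to 4, 1 to 3 and 3 to 6 members in that order. Of all genes, 68.5% to 70.7%, 68.3% to 69.7%, 17.9% to 20.8%, 8.84% to 20.3% and 12% to 24.1% passed. With the longest transcript in place of summed exons, Mcl1 held 94.4% and 93.3% of the guardian level in WT UT and KO UT, the Bcl2a1 copies 62.1% in KO LPS, and Bcl2l11 74.1%, 69.7%, 47.9% and 49.1% of the BH3-only level in UT cells of WT and KO and in LPS cells of WT and KO. Depth limits Bcl2 and, without LPS, Bcl2a1b, which had 31 to 86 counts per UT library.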

Other observations

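Some genes of the pathway differed between untreated genotypes with the offsets for gene length and GC content, where no member passed. The genes with an adjusted p below 0.001 are named, a choice made after their values were seen. By edgeR, lower in KO UT were Ripk3 at -0.66 ± 0.0830 (adjusted p of 4.17e-06), Mlkl at -0.44 ± 0.0586 (9.96e-06), Cdkn1a at -0.43 ± 0.0627 (2.91e-05) and Mdm2 at -0.23 ± 0.0402 (2.28e-04). Higher were Diablo at 0.40 ± 0.0635 (7.99e-05), Cycs at 0.42 ± 0.0824 (6.90e-04) and Htra2 at 0.25 ± 0.0448 (2.56e-04). After LPS in the same fit, Ripk3 was at -0.17, Mlkl at 0.03, Cdkn1a at 0.00 and Diablo at 0.10 and did not pass. Mdm2 was lower in KO at -0.29, Htra2 higher at 0.22 and Cycs lower at -0.23 (edgeR adjusted p of 2.36e-05, 0.00309 and 0.0399).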
